A study of Danio rerio with 4 samples.

Results

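Genes of the neuronal cytoskeleton and of neurite outgrowth were followed in ribosome footprints from brains of nop2 mutant zebrafish and of siblings. Members were chosen by symbol alone, by a pattern of letters for tubulins, microtubule-associated proteins, stathmins, Crmp (dpysl) proteins, neurofilament proteins, doublecortin-like kinases, kinesin-1 heavy chains, the Hu proteins elavl3 and elavl4, Marcks proteins, calponin 3 and gap43. The pattern took 82 of the 25522 genes in the Ribo-seq table, and the pattern uses no measured value. Of the 82, 13 are called matched by letters only, since their main roles lie elsewhere: map1lc3 genes of autophagy, map2k genes of kinase signalling, and dcxr, a sugar reductase. They are counted with the members and described apart.

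Nop2 is a nucleolar RNA methyltransferase that the making of large ribosomal subunits requires. The study asks how it acts on ribosome formation and on the differentiation of neural cells. The groups were 1 library of nop2 mutant brain and 1 library of nop2 sibling brain, both labelled as whole brain cells, and a further library of each genotype was made for RNA bisulfite sequencing. The labels name no allele, do not say which genotypes the siblings had, and give no number of pooled animals. The age stands as 48 days after fertilization in the sample titles and as 48 hours in the series' design text.

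Microtubules are polymers of alpha and beta tubulin, and they are the tracks and struts of axons and dendrites. A newborn neuron makes large amounts of tubulin together with proteins that keep its growing tips plastic, such as stathmins, Crmp proteins, Marcks proteins and Gap43. An older neuron adds proteins that bundle and stabilise its processes, namely tau, large Map proteins and neurofilaments, and relies on kinesin motors for transport along the axon.

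The sibling library held 20696345 footprint reads and the mutant library 18884879. Levels are given as CPM, reads scaled to a common library total, and a ratio is the log2 of mutant over sibling CPM. The interval given with a ratio is an exact 95% counting interval, which covers counting error only. Where a pair of levels is given, the sibling value comes first. A gene counts as measured when its levels average 1 CPM or more, which 18127 genes reached. With 1 library per genotype, no difference below has a replicate check and no test was made. Footprints on nop2 itself stood at 31.7 CPM in sibling and 2.17 CPM in mutant brain. Of 21 pan-neuronal and synaptic marker genes chosen for the check of the tissue label, 20 were measured. Their summed level was 3380 CPM in sibling and 2457 CPM in mutant brain. In the mutant 18 of the 20 were lower, beside 55.1% of all measured genes. Markers of tissues outside the brain had reads as well: 14 skeletal muscle markers summed to 65496 CPM in sibling and 22959 CPM in mutant brain, and 9 epidermal markers to 14650 and 24304 CPM.

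Most of the cytoskeleton and outgrowth genes carried slightly fewer footprints in the mutant library, and very few differed by a large fold. Of the 82 members 79 were measured. Of these, 51 were lower and 28 higher in the mutant, beside 55.1% lower and 44.9% higher among all measured genes. The median ratio was -0.14 with quartiles of -0.33 and 0.10. Over all measured genes the median was -0.06 and the quartiles were -0.37 and 0.27. No measured member was at least 2-fold lower, beside 5.7% of all measured genes, and 1 was at least 2-fold higher, beside 4.72%. That member was map1lc3cl, an autophagy gene matched by letters only. At a smaller limit, chosen after the values were seen, 8 members were at least 25% higher in the mutant and 20 at least 20% lower, beside 22.4% and 28.2% of all measured genes. Among the 71 members at 10 CPM or more, 25 were higher and 46 lower, beside 45.7% and 54.3% of the 10065 genes at that level. None of these 71 differed 2-fold, beside 3.6% of genes that were 2-fold higher and 3.31% that were 2-fold lower. Counting intervals lay wholly below 0 in 40 of the 79 members and wholly above 0 in 17, beside 31.9% and 25.2% of all measured genes. Among the 71 members at 10 CPM or more these numbers were 37 and 14, beside 36.9% and 31.6% of genes at that level. Together the members took 2.03% of the sibling reads and 1.70% of the mutant reads. With the case of letters in the pattern ignored, 60 of 88 measured genes were lower and 28 higher, with a median of -0.17. Fewer neurons and less RNA or fewer ribosomes per neuron cannot be told apart in these bulk samples, and no total RNA was analysed here.

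**Figure D1:**
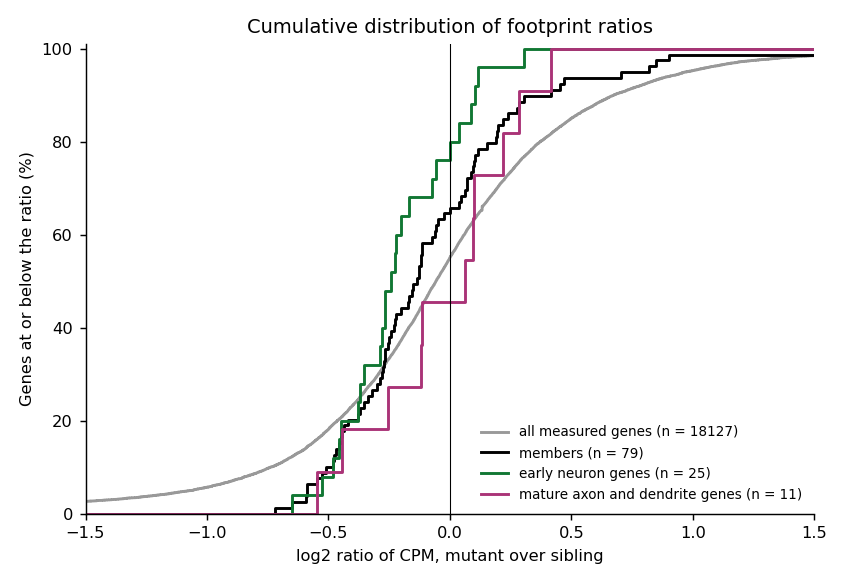
Cumulative share of genes (y axis, percent) at or below a given log2 ratio of mutant over sibling CPM (x axis), for all 18127 measured genes, the 79 measured members, 25 early neuron genes and 11 mature axon and dendrite genes. The range between the quartiles is wider for all genes, -0.37 to 0.27, than for the members, -0.33 to 0.10, and the early median of -0.24 lies left of the mature median of 0.06.

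Of the members, 3 fell under the 1 CPM minimum and 2 stood just above it. Footprints on map1lc3c numbered 19 in sibling and 3 in mutant brain, a ratio of -2.35 (-4.93 to -0.77). The alpha tubulin gene tuba7l had 23 and 9 reads (-1.17, -2.52 to -0.06), and map7a had 19 and 18. Just above the minimum lay tuba4l with 18 and 31 reads and map1lc3cl with 20 and 58. These are the members with the widest counting intervals, and without the minimum 2 members were at least 2-fold lower.

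Genes known from newborn, outgrowing neurons were mostly lower in the mutant library, and genes known from mature axons and dendrites were divided. Of 25 early neuron genes, all measured, 19 were lower and 6 higher, and 18 had counting intervals wholly below 0 against 1 wholly above, beside 36.9% and 31.6% of all genes at 10 CPM or more. Their median ratio was -0.24, with quartiles of -0.37 and -0.06. Relatives of these genes that are not on the early list went both ways. For example, stmn3 (0.70, 0.42 to 0.99) and dclk2a (0.24, 0.11 to 0.37) were higher, and crmp1 (-1.39, -1.54 to -1.25) was lower. Of 11 mature genes 5 were lower and 6 higher, with 4 intervals below 0 and 3 above, close to the shares over all genes. Their median was 0.06, with quartiles of -0.19 and 0.16, so that the early median lay 0.31 under the mature median on the log2 scale (early minus mature, -0.31). The sums of reads differed in the same direction, with a log2 ratio of -0.28 (-0.29 to -0.27) for the early genes and of -0.05 (-0.08 to -0.02) for the mature genes.

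This gap between the lists depended on which genes were counted. The pattern is sensitive to case, and 3 further mature genes stand in the table under capital letters: MAPT, which the gene name table pairs with mapta, KIF5A, paired with kif5ab, and MAP2. Footprints on MAPT, a tau gene, stood at 210.3 CPM in sibling and 130.3 CPM in mutant brain (-0.69, -0.76 to -0.62). Those on MAP2, the dendritic microtubule protein, stood at 91.0 and 72.0 CPM (-0.34, -0.44 to -0.24), and those on KIF5A at 6.04 and 4.82 CPM (-0.32, -0.73 to 0.08). All of these lay lower in the mutant, KIF5A with an interval that includes 0. With case ignored, 8 of 14 mature genes were lower with a median of -0.12. The early list gained DPYSL2 and had a median of -0.26, and the early minus mature difference shrank to -0.14. The sums of reads then had a log2 ratio of -0.29 (-0.30 to -0.28) for the early genes. For the mature genes that ratio was -0.15 (-0.18 to -0.13). Without the neurofilament genes, an alternative chosen after the data were seen, the 5 remaining mature genes had a median of -0.11 and the difference was -0.13. Among members whose deposited counts were whole numbers both lists were smaller: 12 early genes had a median of -0.12 and 2 mature genes a median of -0.19, so that the difference was 0.07.

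**Figure D2:**
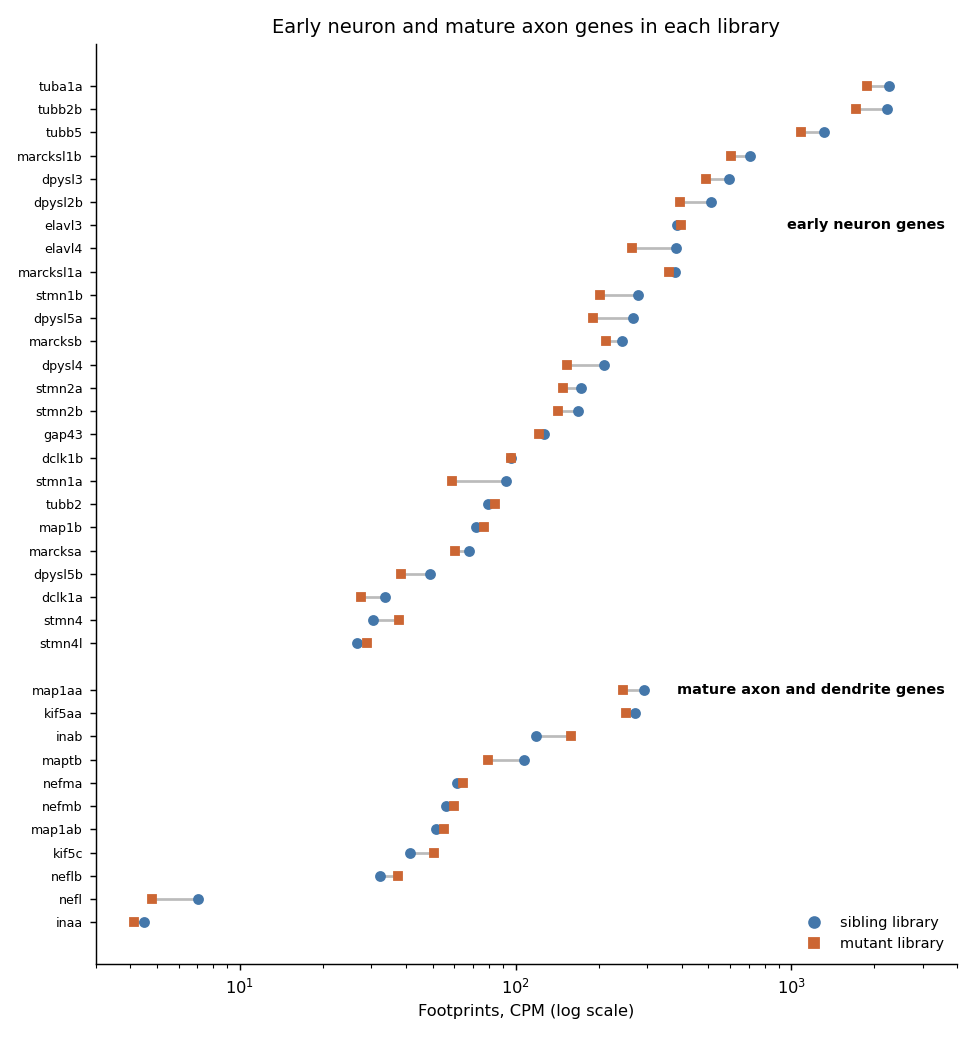
Footprints per gene in CPM (x axis, log scale) in the sibling library (circles) and the mutant library (squares) for 25 early neuron genes and 11 mature axon and dendrite genes, each ordered by its level in the sibling. The mutant value lies left of the sibling value for 19 of the 25 early genes and for 5 of the 11 mature genes, and the distances are small on this scale.

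Tubulins included the most abundant members, and most of them were lower in the mutant. Of 17 measured alpha and beta tubulin genes 13 were lower and 4 higher (12 lower under TMM), beside 55.1% lower among all measured genes. The median ratio of the 17 was -0.23. They took 1.32% of sibling and 1.08% of mutant reads, a log2 ratio of -0.29 (-0.30 to -0.29) for the sum. The counts of all 18 listed tubulin genes were not whole numbers, as in estimates that share reads between near-identical genes. Values of single tubulin genes are therefore uncertain, and the sums over the class are given beside them. Ranked by the authors' TPM, a level per gene length, averaged over both libraries, tubb4b stood at place 107 of all listed genes, tuba1a at 108, tuba1c at 115 and tubb2b at 116.

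Among alpha tubulins tuba1c, the most abundant in the sibling, stood at 2345 CPM in sibling and 1645 CPM in mutant brain (-0.51, -0.53 to -0.49). The gene tuba1a, whose mammalian counterpart is the main alpha tubulin of newborn neurons, stood at 2267 and 1882 CPM (-0.27), and its neighbour tuba1b at 330.5 and 247 CPM (-0.42). These 3 genes stand side by side in the RefSeq gene order of the assembly GRCz12tu. The lowest ratio of the class at 10 CPM or more belonged to tuba2, with 336 and 224 CPM (-0.59, -0.64 to -0.53). The genes tuba8l3 (-0.23) and tuba8l4 (-0.15) were lower with intervals below 0, and those of tuba8l2 (-0.03) and tuba8l5 (-0.13) included 0. Against this direction, tuba5 stood at 433 and 496 CPM (0.20, 0.16 to 0.24). The make-up of alpha tubulin per length differed a little between the libraries. The part of tuba1c in the summed alpha tubulin TPM was 32.7% in sibling and 28.4% in mutant brain, that of tuba5 was 6.07% and 8.62%, and that of tuba1a was 31.7% and 32.6%.

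Among beta tubulins tubb2b, in mammals a gene of newborn neurons, stood at 2214 CPM in sibling and 1714 CPM in mutant brain (-0.37, -0.39 to -0.35), and tubb5, known as a neural beta tubulin of zebrafish, at 1311 and 1081 CPM (-0.28, -0.30 to -0.25). The broadly used tubb4b differed less, with 1952 and 1795 CPM (-0.12, -0.14 to -0.10). Its relative tubb4bl had the lowest ratio of all measured members, with 477 CPM in sibling and 289.5 CPM in mutant brain (-0.72, -0.77 to -0.67). The less abundant tubb6 was lower as well, at 33.2 and 27.9 CPM (-0.25, -0.42 to -0.08). The 2 beta tubulin members that were not lower were tubb2 and tubb1. The gene tubb2 stood at 79.1 and 84.1 CPM with an interval that includes 0 (0.09, -0.01 to 0.19), and tubb1 at 4.01 and 7.10 CPM (0.82, 0.42 to 1.24). A further beta tubulin, TUBB4B, is listed in capital letters and not taken by the pattern. It stood at 110.6 and 109.9 CPM (-0.01, -0.10 to 0.08), with an interval that includes 0. Mammalian TUBB1 is a tubulin of platelets, and no platelet marker was among the lists. The 6 blood markers measured here, all genes of red blood cells, summed to 1867 CPM in sibling and 2976 CPM in mutant brain. Much of that difference lay in hbbe3, at 72.3 and 705 CPM. The part of blood cells in the tubb1 value was not tested. Of the summed beta tubulin TPM, tubb4b made up 33.8% in sibling and 38.3% in mutant brain, and tubb2b 35.5% and 32.9%.

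**Figure D3:**
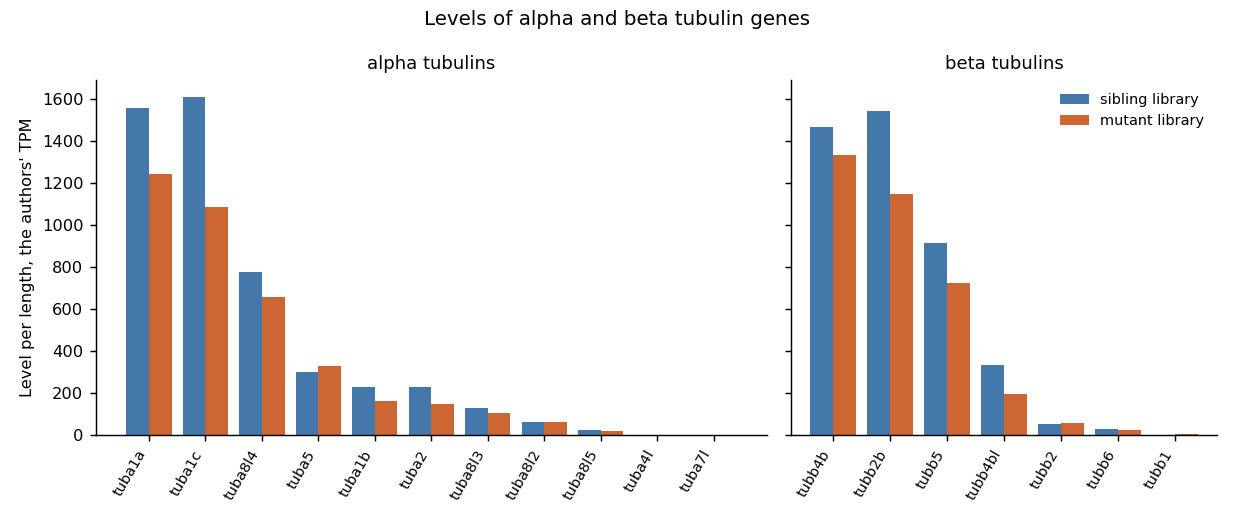
Level per gene length (y axis, the authors' TPM) of 11 alpha tubulin genes and 7 beta tubulin genes in the sibling and the mutant library, 1 bar per library. The mutant bar is the lower of each pair for the 3 most abundant genes of either class, and the higher for tuba5.

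Gamma tubulin seeds new microtubules at centrosomes and other sites, as part of a ring complex with the tubgcp proteins. Of 5 members of this complex 4 were lower in the mutant, beside 55.1% of all measured genes. The median of the 5 was -0.34. The gene tubg1 stood at 63.1 CPM in sibling and 50.5 CPM in mutant brain (-0.32, -0.44 to -0.20). The ring proteins tubgcp3 (34.1 and 25.2 CPM, -0.44), tubgcp4 (16.9 and 13.3 CPM, -0.34) and tubgcp5 (16.8 and 12.1 CPM, -0.48) were lower with intervals below 0. The remaining subunit, tubgcp2, stood at 32.6 and 33.6 CPM (0.04, -0.11 to 0.20), and at -0.01 with the authors' TPM. The counts of all 5 were whole numbers.

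Microtubule-associated proteins were mostly lower by small amounts. Of 11 measured genes of the Map1, Map7 and tau families 8 were lower, beside 55.1% of all measured genes. The median of the 11 was -0.16. Intervals lay wholly below 0 in 5 and wholly above 0 in 1, beside 31.9% and 25.2% of all measured genes. This count leaves out MAPT, MAP2 and MAP7D3, listed in capital letters and all lower. The tau gene maptb stood at 108 CPM in sibling and 79.2 CPM in mutant brain (-0.44, -0.54 to -0.35). The large structural proteins of the Map1 family went both ways: map1aa stood at 292 and 245 CPM (-0.26, -0.31 to -0.20), map1ab at 51.6 and 55.1 CPM (0.10, -0.03 to 0.22), and map1b, the member of the family used by growing axons, at 71.6 and 77.0 CPM (0.10, 0.00 to 0.21). The interval of map1b includes 0. Map7 proteins recruit kinesin-1 to microtubules, and here map7d1b stood at 38.2 and 25.3 CPM (-0.59, -0.76 to -0.43) while its duplicate map7d1a stood at 12.6 and 17.2 CPM (0.45, 0.21 to 0.69). The levels of map7d2a (-0.11), map1sa (-0.13) and map1sb (-0.17) differed by less than their counting intervals could show, and those of map7d2b (-0.16, -0.30 to -0.02) and map7b (-0.47, -0.85 to -0.10) were lower.

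Stathmins bind free tubulin and promote the disassembly of microtubules, and the members were split by subfamily. Both stmn1 genes and both stmn2 genes were lower in the mutant. Footprints on stmn1a stood at 92.4 CPM in sibling and 58.9 CPM in mutant brain (-0.65, -0.76 to -0.54), the lowest ratio among the early neuron genes. Those on the more abundant stmn1b stood at 279 and 203 CPM (-0.46, -0.52 to -0.40). The neuron-specific genes stmn2a, with 173 and 148 CPM (-0.22), and stmn2b, with 168 and 142 CPM (-0.24), had nearly the same levels and ratios. The stmn3 and stmn4 genes lay on the other side. Footprints on stmn4 stood at 30.5 and 37.7 CPM (0.30, 0.15 to 0.46), stmn4l at 26.7 and 28.9 CPM (0.12, -0.06 to 0.29) and stmn3 at 8.55 and 13.9 CPM (0.70, 0.42 to 0.99). With 1 library per genotype the split between the subfamilies was not tested. The stathmin reads as a whole had a log2 ratio of -0.30 (-0.33 to -0.26).

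Crmp proteins carry signals of guidance cues to the cytoskeleton of the growth cone and bind tubulin. All 5 members were lower in the mutant, with a median of -0.38, and all intervals lay below 0, beside 36.9% of all genes at 10 CPM or more. Footprints on dpysl3 stood at 593 CPM in sibling and 492 CPM in mutant brain (-0.27, -0.31 to -0.23), on dpysl2b at 512 and 394 CPM (-0.38, -0.42 to -0.34) and on dpysl5a at 266 and 191 CPM (-0.48, -0.54 to -0.42). The genes dpysl4 (209.9 and 154 CPM, -0.45) and dpysl5b (49.1 and 38.4 CPM, -0.35) had similar ratios. A pair of relatives that the pattern does not take had the lowest ratios of the family. DPYSL2, paired by its RefSeq accession with dpysl2a, stood at 209 and 112 CPM (-0.90, -0.98 to -0.82), and crmp1 at 72.2 and 27.5 CPM (-1.39, -1.54 to -1.25). With both included, 7 of 7 genes of the family were lower with a median of -0.45 by library totals, beside 55.1% of all measured genes. The authors' TPM also gave 7 of 7. TMM, DESeq2 size factors and totals without markers of other tissues add the same small amount to every ratio. The directions of these 7 genes could therefore not change under them.

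Neurofilament proteins form the intermediate filaments that set the width of axons, and their ratios went both ways. Of 6 members 4 were higher, beside 44.9% of all measured genes, with a median of 0.08. The summed reads had a log2 ratio of 0.23 (0.18 to 0.28). Without inab, an alternative chosen after the data were seen, that ratio was 0.08 (0.01 to 0.15). A further gene that the table lists in another case as Nefm, and that the gene name table knows only by a clone name, stood at 4.88 and 3.02 CPM (-0.69, -1.19 to -0.21). With it 4 of 7 genes were higher and the summed ratio was 0.22. The internexin gene inab, the most abundant, stood at 119 CPM in sibling and 158 CPM in mutant brain (0.41, 0.34 to 0.49), and its interval lay above those of all early neuron genes except stmn4. The light chain gene neflb stood at 32.2 and 37.4 CPM (0.22, 0.06 to 0.37). The medium chain genes nefma (61.6 and 64.3 CPM, 0.06) and nefmb (56.0 and 59.9 CPM, 0.10) had intervals that include 0. The 2 scarcest members were on the other side, with inaa at 4.49 and 4.13 CPM (-0.12, -0.57 to 0.33) and nefl, which the gene name table pairs with nefla, at 7.05 and 4.82 CPM (-0.55, -0.94 to -0.16). Light and medium chain genes stand next to each other in the RefSeq gene order, nefla beside nefma and neflb beside nefmb. Counts of 5 of the 6 were not whole numbers. Peripherin (prph), an intermediate filament protein of peripheral sensory and motor neurons used here as a marker, had a ratio of 0.24. The sensory neuron list that holds it went both ways. Of its 13 measured markers 6 were higher and 7 lower, beside 44.9% and 55.1% of all measured genes. Their summed level was 240.5 CPM in sibling and 203 CPM in mutant brain. The 9 motor neuron markers summed to 129.9 and 135 CPM. The part of these neurons in the neurofilament values was not tested.

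Kinesin-1 heavy chains move cargo toward the tips of axons. The neuronal gene kif5aa stood at 271 CPM in sibling and 250.5 CPM in mutant brain (-0.11, -0.17 to -0.06), and kif5c at 41.4 and 50.5 CPM (0.29, 0.15 to 0.42). The broadly used kif5bb stood at 131 and 106 CPM (-0.30, -0.39 to -0.22), and kif5ba at 107 and 103 CPM with an interval that includes 0 (-0.06, -0.15 to 0.03). Their counts were not whole numbers. Doublecortin-like kinases bind microtubules in migrating and growing neurons and were also divided. Footprints on dclk1a stood at 33.6 and 27.5 CPM (-0.29, -0.45 to -0.12), on dclk1b at 96.2 CPM in both libraries (0.00, -0.09 to 0.09) and on dclk2a at 44.9 and 53.0 CPM (0.24, 0.11 to 0.37). DCLK2, listed in capital letters and paired with dclk2b, stood at 10.8 and 8.31 CPM (-0.37, -0.68 to -0.07).

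The Hu proteins bind messenger RNA in neurons from the time they are born, and their genes elavl3 and elavl4 had almost equal levels in the sibling, at 386 and 382 CPM. In the mutant elavl3 stood at 396 CPM (0.04, -0.01 to 0.08) and elavl4 at 265 CPM (-0.53, -0.58 to -0.48). The interval of elavl3 includes 0. Its sign turned with the authors' TPM (-0.03) and with totals without markers of other tissues (-0.02), while elavl4 was lower under each scaling tried. Marcks proteins tie the membrane of growth cones to actin. All 4 genes were lower by little, with a median of -0.19, and 55.1% of all measured genes were lower. The most abundant, marcksl1b, stood at 705 and 602 CPM (-0.23, -0.26 to -0.19), marcksl1a at 378 and 359 CPM (-0.07, -0.12 to -0.03), marcksa at 67.8 and 60.3 CPM (-0.17, -0.28 to -0.06) and marcksb at 244 and 212 CPM (-0.20, -0.26 to -0.14). Gap43, the classical marker of growing axons, stood at 127 and 122 CPM, within its counting interval (-0.06, -0.14 to 0.02). The genes of calponin 3, which binds actin, stood at 106 and 121 CPM for cnn3a (0.19, 0.10 to 0.27) and at 74.4 and 78.1 CPM for cnn3b (0.07, -0.04 to 0.17).

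**Figure D4:**
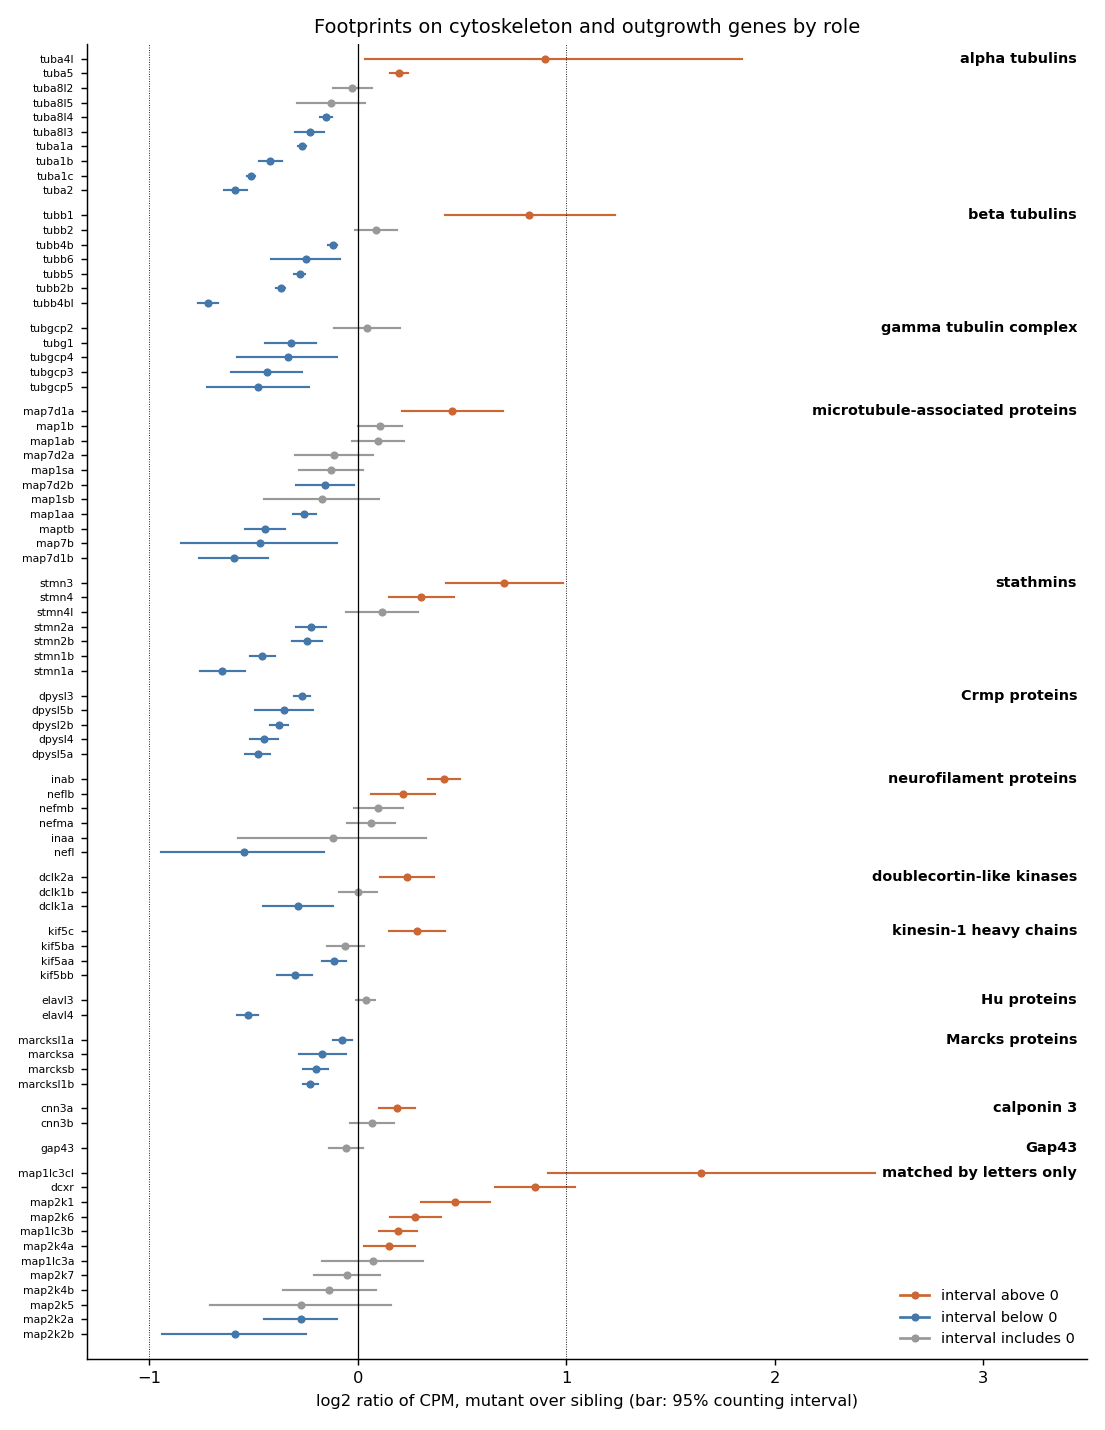
Log2 ratio of mutant over sibling CPM (x axis) for the 79 measured members (1 row each), grouped by role, with exact 95% counting intervals as bars and dotted lines at 2-fold. Crmp and Marcks genes lie wholly to the left of 0, stathmins fall on both sides, and inab and neflb lie to the right.

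Members matched by letters only were divided. Of 12 measured, 7 were higher and 5 lower (6 and 6 with the authors' TPM), beside 44.9% and 55.1% of all measured genes. The median of the 12 was 0.11, or 0.0053 with the authors' TPM. That of the other 67 measured members was -0.17 by CPM. The sugar reductase gene dcxr stood at 17.5 CPM in sibling and 31.6 CPM in mutant brain (0.85, 0.66 to 1.04), and the kinase gene map2k1 at 25.8 and 35.7 CPM (0.47, 0.30 to 0.63). The kinase genes map2k2a, at 29.9 and 24.7 CPM (-0.27, -0.45 to -0.10), and map2k2b, at 9.18 and 6.09 CPM (-0.59, -0.94 to -0.25), were lower, and the most abundant by CPM, the autophagy gene map1lc3b, stood at 94.7 and 108 CPM (0.19, 0.10 to 0.28). Leaving these genes out removed the only member that was 2-fold higher.

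Many members exist as a and b copies left from the genome duplication of teleost fishes, and their ratios were set side by side. Pairs were taken as symbols that differ only in a final a or b. Both copies were measured in 16 such pairs, among them map2k2 and map2k4, matched by letters only. Both were lower in 9 pairs and both higher in 2 (cnn3 and nefm, where cnn3b stood at 0.00 with the authors' TPM). The other 5 had opposite signs, among them dclk1 with its b copy at 0.00, and map2k4. The a copy of map2k4 turned from 0.15 to -0.0023 with the authors' TPM. The median difference within a pair was 0.17 on the log2 scale, and in 7 pairs the counting intervals of both copies did not overlap. Among all measured genes 55.1% were lower. Gene pairs outside the members were not counted, so these numbers cannot be called particular to the members. Among these pairs the widest gap was that of map7d1, at 1.05. It was followed by ina, whose b copy is 26.6 times more abundant per length in the sibling, at 0.53, and by map1a at 0.35. The copies nefl (nefla) and neflb were left out of these counts by their symbols. They had opposite signs (-0.55, -0.94 to -0.16, and 0.22, 0.06 to 0.37), a wider gap than that of ina. The closest were stmn2, marcks and nefm, with gaps of 0.02, 0.03 and 0.04. The stmn2 copies were also nearly equal in level per length, at 288 and 280.3 TPM in the sibling. Counts of both copies were not whole numbers for map7d1, ina, map1a, stmn2, and nefl with neflb. Reads may have been shared between such copies, so these gaps are uncertain.

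The chosen lists of other microtubule, actin and growth cone genes were mostly lower by similar small amounts, apart from the machinery that folds tubulin. These lists were matched by exact symbol only, so genes held under another name or case would be missed. Found were 43 of 46 genes for tubulin folding and modification and 35 of 45 for microtubule ends, severing and lissencephaly. For actin of the growth cone 51 of 59 were found. Among all measured genes 55.1% were lower. Genes annotated as microtubule components outside the members, 179 of them measured, had a median of -0.05, beside -0.06 over all measured genes. Those annotated to axons or neuron projections, 331 measured, had a median of -0.22. Of 40 measured genes for the folding and modification of tubulin 19 were higher and 21 lower, with a median of -0.01 that turned to 0.04 under TMM. Among these the chaperonin subunit gene cct3 stood at 502 and 507 CPM (0.02), and the tubulin polyglutamylase gene ttll4 at 35.2 and 11.4 CPM (-1.63, -1.86 to -1.41). Of 33 measured genes of microtubule ends, severing and lissencephaly 25 were lower, with a median of -0.27. The stabilising protein gene map6a stood at 29.5 and 18.6 CPM (-0.66), the plus-end gene mapre1b at 183 and 160.2 CPM (-0.19), and nde1, a dynein regulator of dividing progenitors, at 17.3 and 30.4 CPM (0.81, 0.62 to 1.00).

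Of 46 axonal motor genes listed, only 31 were found by symbol, and all of these were measured. Of the 31, 26 were lower, beside 55.1% of all measured genes. The median of these motor genes was -0.13, with values down to -0.63 for the dynein intermediate chain gene dync1i2b (86.9 and 56.0 CPM). Spectrin, ankyrin and axon initial segment genes had a median of -0.14, with 13 of 18 entries lower, from a list of 27 symbols. The symbol ank1a was counted under separate gene entries, at 0.18 and -2.26. In that list the spectrin gene sptan1 stood at 1082 and 1174 CPM (0.12), and cntnap1, a gene of contacts between axon and myelin, at 15.6 and 5.24 CPM (-1.57, -1.91 to -1.24). The list of actin genes of the growth cone had a median of -0.13, with 33 of 49 lower. It also holds sema3aa, nrp1a, rtn4a, rtn4b and crmp1, which are not actin genes and were all lower. The gene crmp1 is described with the Crmp family as well. The summed reads of the list went from 19593 to 21584 CPM, with the abundant actin gene actb2 at 9571 and 11037 CPM (0.21).

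**Figure D5:**
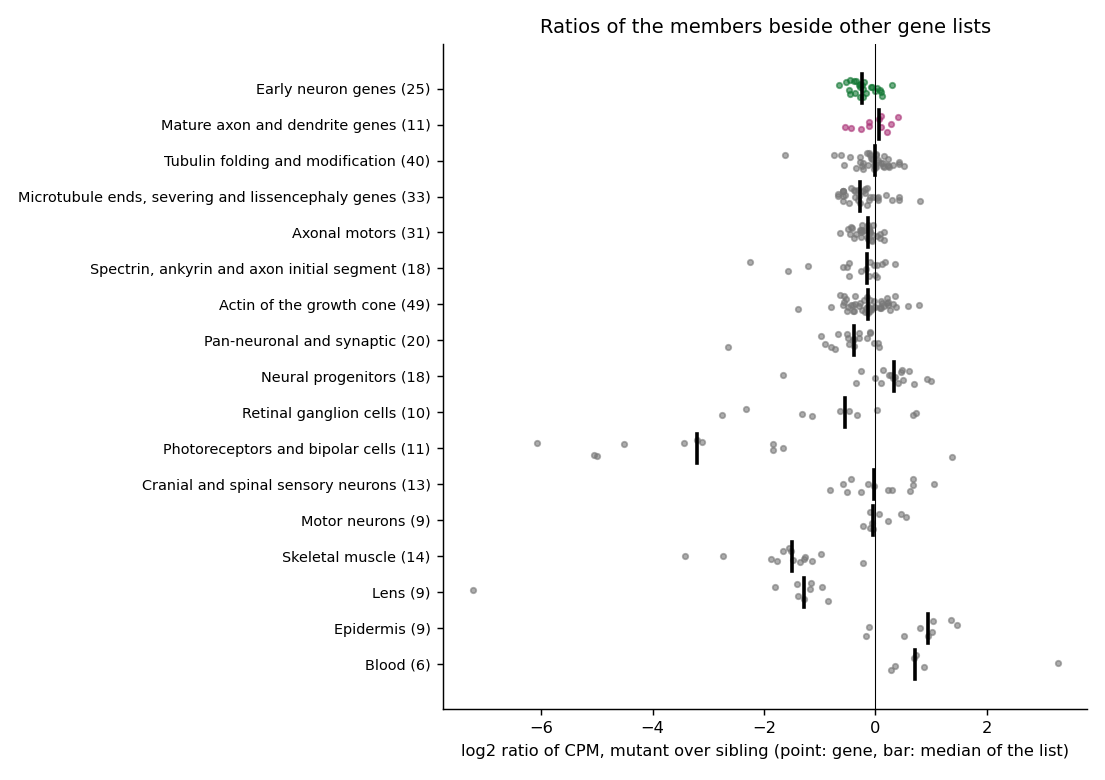
Log2 ratio of mutant over sibling CPM (x axis) of each measured gene (points) and the median of each list (bars), for the early and mature members, 5 lists of other cytoskeleton and growth cone genes and 10 lists of cell type markers, with the number of measured genes in parentheses. The median of the early neuron genes, -0.24, lies left of 0 but less far than that of the pan-neuronal and synaptic markers, -0.39, and the medians of muscle, lens and photoreceptor markers lie below -1.

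Markers of cell types that use these cytoskeleton genes, or that share the library with them, also differed between the libraries. The 20 pan-neuronal and synaptic genes had a median of -0.39, lower than that of the early neuron genes. Their ratios ran from -2.65 (-2.90 to -2.41) for stxbp1b, at 53.5 and 8.53 CPM, to 0.06 (-0.01 to 0.13) for snap25a, at 164 and 171 CPM, both genes of synaptic release. Of 18 progenitor markers 14 were higher, beside 44.9% of all measured genes, with a median of 0.34. Even so, their summed level was 3526 CPM in sibling and 3502 CPM in mutant brain, with fabp7a, a gene of radial glia, at 800.3 and 252 CPM. Retinal ganglion cells, projection neurons rich in these proteins, had 7 of 10 markers lower, beside 55.1% of all measured genes. Against this direction, atoh7 (0.73, 0.49 to 0.97) and sncga (0.67, 0.45 to 0.90) were higher. The list summed to 323 CPM in sibling and 234 CPM in mutant brain. Photoreceptor and bipolar cell markers summed to 741 and 81.8 CPM. None of the measured markers had a count of 0 in either library. The part of eye tissue or of progenitors in the ratios of the cytoskeleton genes was not tested.

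The authors' deposited table gave 56 of the 82 members an FDR under 0.05, of which 41 had a lower and 15 a higher value in the mutant, beside 38.7% of all listed genes at that limit. Of the 9871 listed genes at that limit, 5531 were lower in the mutant. In the authors' deposited table these values compare 1 library with 1 library, and 2 of the 56 differed at least 2-fold. Those 2 were map1lc3c, which lay under the 1 CPM minimum with 19 and 3 reads, and map1lc3cl. Both are autophagy genes matched by letters only. The share of all genes at this limit that differed 2-fold was not counted. The authors' deposited tables of differential RNA cytosine methylation, with 617 loci on 92 genes and 52 regions on 51 genes, listed none of the members, also with the case of symbols ignored. These are few genes beside the 25522 in the Ribo-seq table. The absence of the 82 members is therefore no result about them.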

How the data were processed

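Ribosome footprints of 1 sibling and 1 mutant brain library were compared. Per the submitters' processing notes, the build was GRCz11 and the tools included fastp, Bowtie2, STAR and Trimmomatic 0.38, with no role stated. The sources used here do not name the program that counted footprints. Per the file headers, the authors deposited a count per gene and library. The deposited values are expected counts, since the authors' columns were not whole for 25.7% of genes (tolerance 0), and they were rounded here. The authors also deposited TPM, scaled by gene length and library, a log2 fold change of TPM, and a p-value with FDR from a test that no source names. A pair of further per-sample columns (2) was not used. The deposited bisulfite tables compare conditions not tied to a genotype, and only the gene names in them were used.

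Ratios are log2 of mutant over sibling CPM with a pseudocount of 0.5, with exact Clopper-Pearson 95% intervals conditional on the summed counts (Python 3.11.15, scipy 1.17.1), checked on simulated counts. A read equalled 0.0483 CPM (sibling) or 0.0530 CPM (mutant). Intervals cover counting error only: the sources name no molecular tags, and reads copied by PCR are not independent. TMM factors came from edgeR 4.0.16 and size factors from DESeq2 1.42.0. Symbols under older or human names were matched to the early and mature lists by gene ID, or by the accession in RefSeq (GRCz12tu).

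Values are given in full for early and mature members at 10 CPM or more, for the most abundant gene of each role, and for its highest and lowest ratio at that level. Some others are named after their values were seen. Members and lists were chosen with earlier results of these data known. No sequences are shown.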

Additional observations from a re-analysis of the deposited data

How the results depend on the processing

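No paired analysis was possible because each genotype had 1 library and the labels give no replicate numbers, and no library could be left out. The alternatives were TMM, DESeq2 size factors, totals without markers of other tissues, the authors' TPM and a pseudocount of 5. Across these the median of the members ranged from -0.20 to -0.08. The early median ranged from -0.30 to -0.19 and the mature median from 0.0050 to 0.12. The early minus mature difference stayed at -0.31 with the authors' TPM and with the pseudocount of 5. The other scalings add the same amount to every ratio, so this difference could not change under them. The scalings moved the median of all genes by at most 0.06 on the log2 scale. The early minus mature difference depended on the genes counted. It was -0.14 with the case of symbols ignored and -0.13 without the neurofilament genes, and it turned to 0.068 among members with whole counts, where 12 of 25 early and 2 of 11 mature genes remained and both medians differed. The count of members at least 2-fold lower became 2 without a minimum. The count of members at least 2-fold higher became 0 at 10 CPM or more and 0 without symbols matched by letters only. At least 25% higher were 8 members and at least 20% lower were 20, a limit chosen after seeing the data. Of 395 recomputed ratios of single members, 63 moved outside their counting interval and 1 turned sign from an interval that excluded 0, namely map2k4a, at 0.15 by CPM and -0.0023 with the authors' TPM. The summed neurofilament ratio fell from 0.23 to 0.08 without inab. Counting error limits members under about 5 CPM, and no value here has a replicate behind it.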
